A study of Bos indicus with 11 samples.

Results

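Genes of the matrix metalloproteases, of the ADAM and ADAMTS metalloproteases and of the tissue inhibitors of metalloproteases (TIMP) were examined in uterine biopsies of Nellore cows. Members were the rows of the deposited table whose gene symbol is MMP, ADAM, ADAMTS or TIMP followed by a number. The rule found 59 of the 24616 rows, of which 18 were MMP, 20 ADAM, 17 ADAMTS and 4 TIMP. A mean of at least 5 normalized counts over the 11 cows was reached by 42 of them, namely 11 MMP, 11 ADAM, 16 ADAMTS and 4 TIMP, and 17 had a lower mean. Of the cows, 6 were diagnosed as pregnant on day 30 after artificial insemination (AI) and are called P, and 5 were diagnosed as non-pregnant and are called NP. All were multiparous, cycling and non-lactating cows on the same pasture, synchronized with 2 doses of a prostaglandin F2α analogue and inseminated at estrus, and cows of both groups had been selected for similar plasma progesterone on the day of biopsy. Each biopsy was taken on day 6 after AI from the uterine horn opposite the ovulation, before the outcome was known, so the groups share every treatment and differ in what followed. RNA was sequenced with polyA selection and 1 library was made per cow, so a cow is 1 replicate. Cow P617 carries the P label, although a supplementary list of the study names it as non-pregnant, and it was kept as P.

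Metalloproteases of these families hold a zinc ion in the active site and are made as inactive precursors whose propeptide must be removed. Secreted MMPs cut collagens, gelatins and other matrix proteins, and membrane-type MMPs do so at the cell surface. ADAMs are membrane proteins, several of which release the outer part of receptors and growth factors from the cell (shedding), and ADAMTS enzymes are secreted proteases that cut proteoglycans or trim procollagens. TIMPs block the active site, each with its own range of targets. In the uterus these genes are known for the breakdown and rebuilding of stroma during the cycle and at implantation.

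Between 9290949 and 13569085 reads were counted on genes per cow. Defining markers of epithelium, stroma, smooth muscle, endothelium, pericytes and leukocytes were found in every biopsy, with 0 of the markers tested at 0 reads in any cow. Scores were taken as the mean log2(normalized count + 1) over a marker list. P617 and P1541 stood apart from the other cows in smooth muscle, with scores of 15.27 and 14.93, against 14.22 in NP638 and 11.65 to 13.65 in the rest. P617 also had the lowest epithelial score, 7.74, against 9.57 to 10.58 in the other cows. Each epithelial marker but CDH3 was lowest in P617. CDH3, which the score also averages, was instead highest in P617 and P1541, at 3215 and 1858 normalized counts. Both biopsies are P, so the counts and the fold changes of the members described singly are given with all cows and, where stated, without both.

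The interstitial collagenases and gelatinase B were near or below detection at this depth. For MMP1, a collagenase that opens fibrillar collagen, 2 rows were listed and both were at 0 reads in every cow, which allows up to 3 reads per library. MMP8 and MMP13, the other collagenases, each had 1 read in 1 cow, and MMP9, gelatinase B, had 1 read in each of 2 cows. MMP20, MMP27, ADAM2, ADAM18, ADAM20 and 1 of the 2 rows of ADAM21 had 0 reads in every cow, and ADAM30 had 1 read in 1 cow. The other low members reached at most 13.1 normalized counts for ADAM7, 13.1 for ADAMTS20, 10.1 for the second row of ADAM21, 9.13 for ADAM32 and 7.14 for ADAM22. The mean of ADAMTS20, a proteoglycanase, was 4.88 and lay just under the filter, while the mean of MMP25 was 5.56 and lay just above it. MMP3 and MMP10, the other stromelysins, and ADAMTS7 were not analysed here.

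Members were mostly at higher levels in the NP cows, with a median fold change above 0 in each of the 4 families, but with limma no member passed the test across all genes. ADAM12, a membrane protease of stromal cells, had the smallest p-value of the members and was the one in which the groups did not overlap. ADAMTS1, ADAMTS2, ADAMTS4, MMP2, MMP11, MMP14, TIMP3 and TIMP4 were also higher in NP at an unadjusted threshold. The best-known sheddases, ADAM10 and ADAM17, and the inhibitors TIMP1 and TIMP2 did not reach it. Fold changes are NP over P on the log2(normalized count + 1) scale. The added 1 shrinks the change of low genes, but a cow at or near 0 reads can enlarge it or turn its sign. The log2 fold change was 2.22 for ADAM23, against 1.14 with DESeq2, and 0.30 for ADAMTS18, against -0.64. The test was limma, a gene-by-gene linear model that borrows the estimate of the spread from other genes. It covered the 15081 genes that reached the mean of 5, with Benjamini-Hochberg adjustment over all of them.

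With limma, 0 of the 42 members had an adjusted p-value under 0.1, and of all genes tested 0% had. At an unadjusted p-value under 0.05, 9 members were higher in NP, which is 21.4% of the 42, against 5.49% of all genes tested. In the other direction 0 members reached that level, against 2.35% of all genes. The quasi-likelihood test of edgeR on the recovered reads also gave 0 members past the adjusted threshold, as for 0% of all genes. At the unadjusted one it gave 9 members higher in NP, against 4.8% of all genes, and 1 higher in P, against 2.94%. DESeq2 on the same reads called 3 members higher in NP, ADAM12, ADAMTS1 and TIMP3, where it called 1.13% of all genes in that direction. It called 0 members higher in P, where it called 0.206% of all genes. These 3 genes were named by the study from the same samples with DESeq2, so their calls here are not independent evidence of a direction. For ADAM12 the study also reported higher levels in NP by quantitative PCR, in the same cows and in additional cows of the same experiment.

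The log2 fold change was above 0 in 31 of the 42 members, or 73.8%, against 50.2% of all genes tested. The median over the 42 was 0.33, while the median over all genes was 0.00182. By family, the median was 0.61 over the 16 ADAMTS genes (13 above 0), 0.40 over the 11 MMP genes (8 above 0), 0.26 over the 4 TIMP genes (3 above 0) and 0.24 over the 11 ADAM genes (7 above 0). Members vary together within a cow, and these counts describe the 42 genes and carry no test. In a bulk biopsy, more cells of a type and more RNA per cell cannot be told apart.

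**Figure D1:**
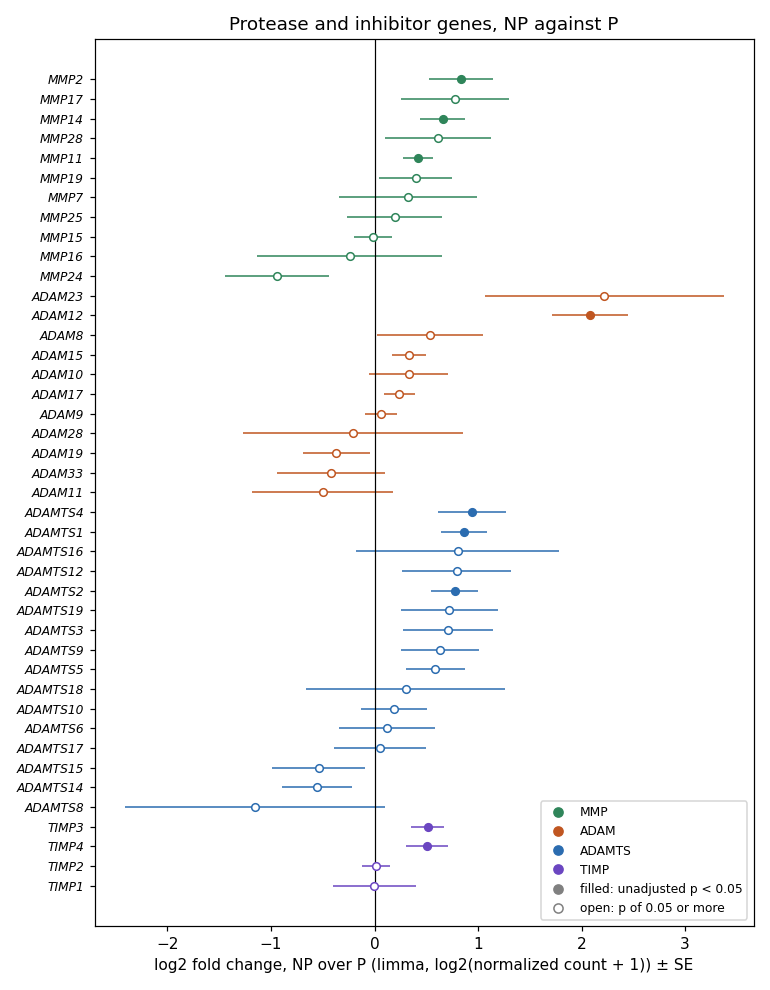
Log2 fold change (NP minus P, limma on log2(normalized count + 1)) of the 42 members with a mean of at least 5, grouped by family, with bars of 1 standard error and filled points at an unadjusted p under 0.05. Most points lie to the right of 0, from -1.16 for ADAMTS8 to 2.22 for ADAM23, and the 9 filled points all lie there, ADAM12 at 2.08.

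ADAM12 (Ensembl ENSBTAG00000012444), which has both a protease and a cell-adhesion domain and sheds HBEGF, had 514, 552, 656, 869 and 931 normalized counts in the NP cows. The lowest, median and highest P values were 71.2 (cow P617), 187 and 293 (cow P904). The 6 P cows all lay below the 5 NP cows. The mean was 704 ± 187 (SD, n = 5) in NP and 183 ± 92.7 (SD, n = 6) in P, a ratio of 3.85. The log2 fold change was 2.08 (SE 0.368) with a limma adjusted p of 0.216, the rank of the gene being 6 among all genes tested. Its adjusted p was 0.000290 with DESeq2 and 0.231 with edgeR. An exact permutation test (two-sided, all ways to divide the cows) gave p = 0.00216, the smallest it can give. That p-value is not adjusted over genes and largely restates the lack of overlap. Of all genes tested, 0.855% had every NP cow above every P cow, and 0.239% had every P cow above every NP cow, a state that 0 members reached. Without P617 and P1541, which had the lowest ADAM12 values of all, the log2 fold change was 1.60 and the limma adjusted p 0.0995.

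The other ADAM genes with a known sheddase role overlapped widely. ADAM10, which sheds Notch and cadherins, had 1355, 1517, 1546, 2488 and 2592 normalized counts in NP and 492.5 (cow P617), 2005 and 2187 (cow P2396) as lowest, median and highest in P, with a log2 fold change of 0.33 and a limma adjusted p of 0.865. P617 and P1541 were the lowest cows for ADAM10, and without them the sign turned to -0.19. ADAM17, which releases TNF and EGF-family ligands, had 380.5, 385, 430.2, 441 and 463 in NP and 277 (cow P617), 336 and 456 (cow P1753) in P, a log2 fold change of 0.24 with a limma adjusted p of 0.764, and 0.11 without the same cows. Its NP values fell within a narrow band that the upper P cows shared. ADAM9, a widely expressed sheddase, had 452, 461.8, 531, 660.3 and 769 in NP and 451 (cow P617), 542 and 622 (cow P1753) in P, with a log2 fold change of 0.064 (limma adjusted p 0.935), and 0.012 without them. ADAM15, an adhesion-linked ADAM of endothelium and epithelium, had 632, 764, 859, 870.5 and 895 in NP and 452 (cow P617), 665 and 823 (cow P1631) in P, with a log2 fold change of 0.33 (limma adjusted p 0.679), and 0.19 without them. ADAM19, which is related to ADAM12 in sequence, did not share its pattern, with 382, 412, 500.1, 609 and 809.6 in NP and 384 (cow P904), 636 and 1299.9 (cow P1541) in P. Its log2 fold change of -0.37 (limma adjusted p 0.821) came with P1541 and P617 as the highest cows, and it was 0.021 without them.

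On the log2(normalized count + 1) scale the largest log2 fold change among the members was that of ADAM23, a neuronal adhesion protein without protease activity, at 2.22 (SE 1.15, limma adjusted p 0.701). P617 had 0 reads of it, the other P cows 42.3 to 257 and the NP cows 148 to 276 normalized counts. Without P617 and P1541 the log2 fold change was 0.93. With DESeq2 on all cows it was 1.14, below the 1.94 of ADAM12. ADAM28, an ADAM of epithelial and lymphoid cells, was also low in P617, at 5.65 normalized counts, and spanned 28.3 to 231 in NP and up to 488 in P. ADAM8, an ADAM of leukocytes, spanned 8.15 to 51.0 in NP and 5.71 to 22.6 in P. ADAM11, ADAM33 and ADAM28 had log2 fold changes below 0, between -0.50 and -0.21, with standard errors of 0.519 to 1.06, and from -1.64 to -0.095 without P617 and P1541.

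Among the ADAMTS genes, the proteoglycanases, which cut versican and aggrecan, were led by ADAMTS1. Its NP values were 2065, 2398, 2506, 2531 and 3205 normalized counts, and its lowest, median and highest P values were 979 (cow P1631), 1303 and 2229.9 (cow P617). The highest P cow, P617, lay above the lowest NP cow, and the other 5 P cows lay below every NP cow. The mean was 2541.1 ± 415 (SD, n = 5) in NP and 1447 ± 506 (SD, n = 6) in P. The log2 fold change was 0.87 (SE 0.221), with an adjusted p of 0.306 with limma and 0.0803 with DESeq2. Without P617 and P1541 the log2 fold changes were 1.15 for ADAMTS1, 0.91 for ADAMTS4 and 0.72 for ADAMTS5. ADAMTS4, which cuts the same substrates, had 154, 159, 160.3, 251 and 265 in NP and 49.1 (cow P1631), 103 and 197 (cow P904) in P. Its log2 fold change was 0.94 (SE 0.329, limma adjusted p 0.482), and P904 lay among the NP cows. ADAMTS5, the other main aggrecanase, had 237.7, 256, 296, 327 and 473 in NP and 115 (cow P904), 205 and 383 (cow P617) in P, a log2 fold change of 0.58 (limma adjusted p 0.662).

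ADAMTS9, a versican-cutting enzyme of stroma and vessels, had 1019.5, 1112, 1356, 1422 and 1706 normalized counts in NP and 380.3 (cow P1631), 789 and 1959 (cow P617) in P. Both the highest and the lowest cows were P, and P617 and P1541 were its highest P cows. The log2 fold change was 0.64 (limma adjusted p 0.746), and 1.14 (limma adjusted p 0.139) without them. ADAMTS8 and ADAMTS15, which belong to the same group, had log2 fold changes of -1.16 and -0.54, both with P617 as the highest cow. Without P617 and P1541 the sign of ADAMTS8 turned to 0.076 and ADAMTS15 was at -0.10. ADAMTS8 was at 0 reads in P2396, NP238 and NP856 and at 68.9 normalized counts in P617. Over the 6 proteoglycanases tested the median log2 fold change was 0.61, with 4 above 0, where 50.2% of all genes were. Of the 6, 2 were higher in NP at the unadjusted threshold, against 5.49% of all genes.

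Of the procollagen N-propeptidases, which trim the amino ends of fibrillar procollagens, ADAMTS2 was higher in NP. The NP values were 528, 740.0, 757, 762 and 787 normalized counts and the lowest, median and highest P values 264 (cow P2396), 378 and 689 (cow P1541). All NP cows but NP2541 lay above every P cow. The log2 fold change was 0.77 (SE 0.229, limma adjusted p 0.369), and 0.90 without P617 and P1541. ADAMTS3, a close relative, had 16.2 to 25.8 in NP and 4.57 to 34.8 in P, where P1541 was the highest of all cows. ADAMTS14, the third of the group, had 18.8 to 44.5 in NP, 22.3 to 73.8 in P and a log2 fold change of -0.56 (limma adjusted p 0.760). The values were 1.16 for ADAMTS3 and -0.88 for ADAMTS14 without both cows. The other ADAMTS genes tested were ADAMTS6, ADAMTS10, ADAMTS12, ADAMTS16, ADAMTS17, ADAMTS18 and ADAMTS19, with log2 fold changes from 0.056 to 0.80 and limma adjusted p-values from 0.770 upward. The sign turned without both cows in 4 of these 7, to -0.56 for ADAMTS16, -0.20 for ADAMTS17, -0.96 for ADAMTS18 and -0.061 for ADAMTS6. With DESeq2 on all cows the sign was also below 0 for ADAMTS18, at -0.64, and ADAMTS17, at -0.019.

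**Figure D2:**
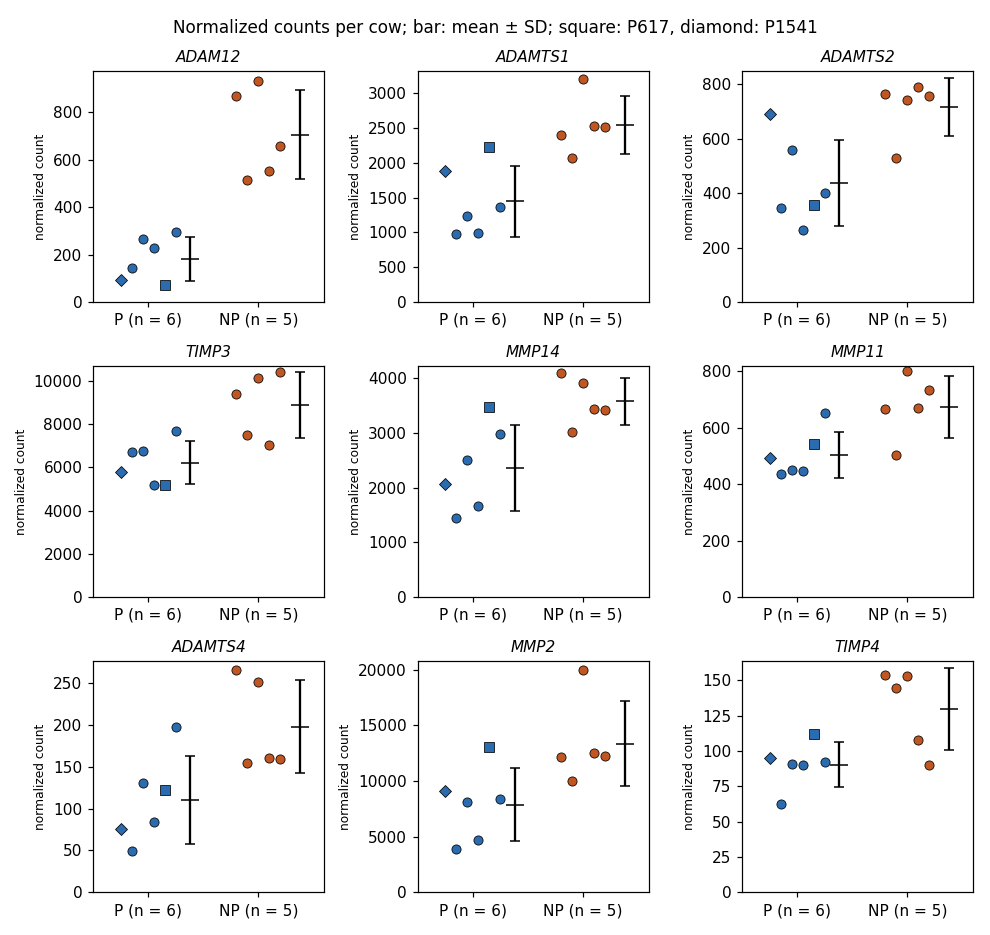
Normalized counts on linear axes from 0 in each P cow (n = 6) and NP cow (n = 5) for the 9 members higher in NP at an unadjusted p under 0.05, with the group mean ± SD as bars, P617 as a square and P1541 as a diamond. ADAM12 is the panel in which the groups are apart, while P617 lies among the NP cows for ADAMTS1, MMP14, MMP2, MMP11 and TIMP4.

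In the MMP family, gelatinase A, its activator at the cell surface and stromelysin 3 were higher in NP at the unadjusted threshold. MMP2, gelatinase A, had 9999, 12121, 12223, 12553 and 19975 normalized counts in NP. The lowest, median and highest P values were 3885 (cow P1631), 8274 and 13055 (cow P617). P617 lay above 4 of the NP cows and the other P cows lay below all 5. The mean was 13374 ± 3825 (SD, n = 5) in NP and 7888 ± 3306 (SD, n = 6) in P, with a log2 fold change of 0.84 (SE 0.308, limma adjusted p 0.504), and of 1.13 without P617 and P1541.

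MMP14, the membrane-type protease that activates the MMP2 precursor together with TIMP2, had 3014, 3426, 3434, 3912 and 4089 normalized counts in NP and 1440.1 (cow P1631), 2292 and 3476 (cow P617) as lowest, median and highest in P. Here too P617 lay inside the NP range and the other P cows below it. The log2 fold change was 0.66 (SE 0.217, limma adjusted p 0.446), and 0.79 without P617 and P1541. MMP11, stromelysin 3, a stromal protease that furin-like enzymes activate inside the cell, had 505, 667, 672, 732 and 800.2 in NP and 437 (cow P1631), 472 and 653 (cow P904) in P. P904 and P617 overlapped with the lowest NP cow, NP2541, and the log2 fold change was 0.42 (SE 0.145, limma adjusted p 0.471), and 0.45 without both. Over the 6 membrane-type MMPs the median log2 fold change was 0.089, with 3 above 0, where 50.2% of all genes were. MMP15 was at nearly the same level in both groups, 855.5 ± 219 in NP (SD, n = 5) and 847 ± 120.0 in P (SD, n = 6), and its log2 fold change was -0.017 (SE 0.181). MMP24 was low throughout, with 2.04 to 4.30 in NP and 2.63 to 18.1 in P, and P617 and P1541 were its highest cows. Its log2 fold change was -0.94 (limma adjusted p 0.714), and -0.37 without them. MMP16, MMP17 and MMP25 had means between 5.56 and 33.3 normalized counts and log2 fold changes from -0.24 to 0.78, and without both cows the sign of MMP16 turned to 0.65.

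MMP7, matrilysin, is a protease of gland epithelium. It had 14.2, 15.7, 17.2, 55.9 and 61.2 normalized counts in NP and 2.90 (cow P1541), 26.2 and 56.4 (cow P1753) in P, and its log2 fold change of 0.33 (limma adjusted p 0.924) turned to -0.31 without P617 and P1541. Within each group the values spread over a wider range than the difference between the group means. MMP19, a protease of stroma and vessel walls, had 529, 553, 579, 685 and 686 in NP and 230.2 (cow P2396), 451 and 1066 (cow P617) in P. The NP cows were close together, while the P cows held both extremes. Its log2 fold change was 0.40 (limma adjusted p 0.823), and 0.87 (limma adjusted p 0.191) without P617 and P1541. MMP28, epilysin, spanned 322 to 479 in NP, and in P it was at 45.2 in P617 and 286 to 486 in the others.

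Of the 4 inhibitors, TIMP3 and TIMP4 were higher in NP at the unadjusted threshold, and TIMP1 and TIMP2 had log2 fold changes close to 0. TIMP3, which binds to the matrix and inhibits ADAM17 and the aggrecanases as well as MMPs, had 7043, 7490.3, 9371, 10135 and 10406 normalized counts in NP. The lowest, median and highest P values were 5178 (cow P2396), 6258 and 7702 (cow P904). The highest P cow, P904, lay above the 2 lowest NP cows. The mean was 8889 ± 1537 (SD, n = 5) in NP and 6223 ± 1005 (SD, n = 6) in P, with a log2 fold change of 0.51 (SE 0.161) and an adjusted p of 0.415 with limma and 0.0975 with DESeq2. It was 0.43 without P617 and P1541. TIMP4, an inhibitor best known from heart and vessels, had 90.3, 108, 144, 153 and 154 in NP and 62.8 (cow P1631), 91.3 and 112 (cow P617) in P. Its log2 fold change was 0.51 (SE 0.206, limma adjusted p 0.564), and 0.61 without P617 and P1541, while NP856 and NP638 lay within the P range.

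TIMP2, the inhibitor that also helps MMP14 to activate MMP2, had 4603, 5485, 5822, 6165 and 6554 normalized counts in NP and 4644 (cow P2396), 5758 and 6467 (cow P1753) in P. Its log2 fold change was 0.012 (SE 0.136), and 0.07 without P617 and P1541, and the groups covered nearly the same range. TIMP1, an inducible inhibitor of most MMPs, had 636, 639, 833, 895 and 919 in NP and 402 (cow P1631), 648 and 2301 (cow P617) in P. P617 and P1541 were the 2 highest of all cows and 3 of the other P cows lay below every NP cow. Its log2 fold change was -0.0013 (SE 0.399), and without those cows 0.56 (limma adjusted p 0.304). The 4 TIMP genes, MMP14, MMP24 and ADAMTS12 each overlap another protein-coding gene in the RefSeq annotation of another cattle assembly, the synapsin genes in the case of TIMP1, TIMP3 and TIMP4. Whether counting used the strand is not stated, so their counts may hold reads of the partner gene.

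The P cows differed more among themselves than the NP cows, for members as for other genes. The SD of log2(normalized count + 1) was larger in P for 31 of the 42 members, or 73.8%, against 72.7% of all genes tested. The median SD over the members was 0.764 in P and 0.390 in NP, and over all genes tested 0.451 and 0.306. P617 was the highest of the 11 cows in 7 members (ADAMTS8, ADAMTS9, ADAMTS10, ADAMTS15, MMP19, MMP24 and TIMP1) and the lowest in 12, among them ADAM9, ADAM10, ADAM12, ADAM15, ADAM17 and MMP28. These are 16.7% and 28.6% of the 42, against 26.0% and 27.3% of all genes tested, so P617 was extreme across the whole table. P1541 was the highest in 5 (ADAM19, ADAM33, ADAMTS3, MMP16 and MMP17), 11.9% against 8.52% of all genes. P1631 was the lowest cow in 10 members, 23.8% of the 42, and in 9.999% of all genes. It was the lowest in 6 of the 9 members that were higher in NP at the unadjusted threshold, and it also had the lowest stromal score, 13.25. NP238 was the highest in 9 members, 21.4% of the 42, against 10.2% of all genes, and NP2810 in 7, or 16.7% against 10.5%.

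**Figure D3:**
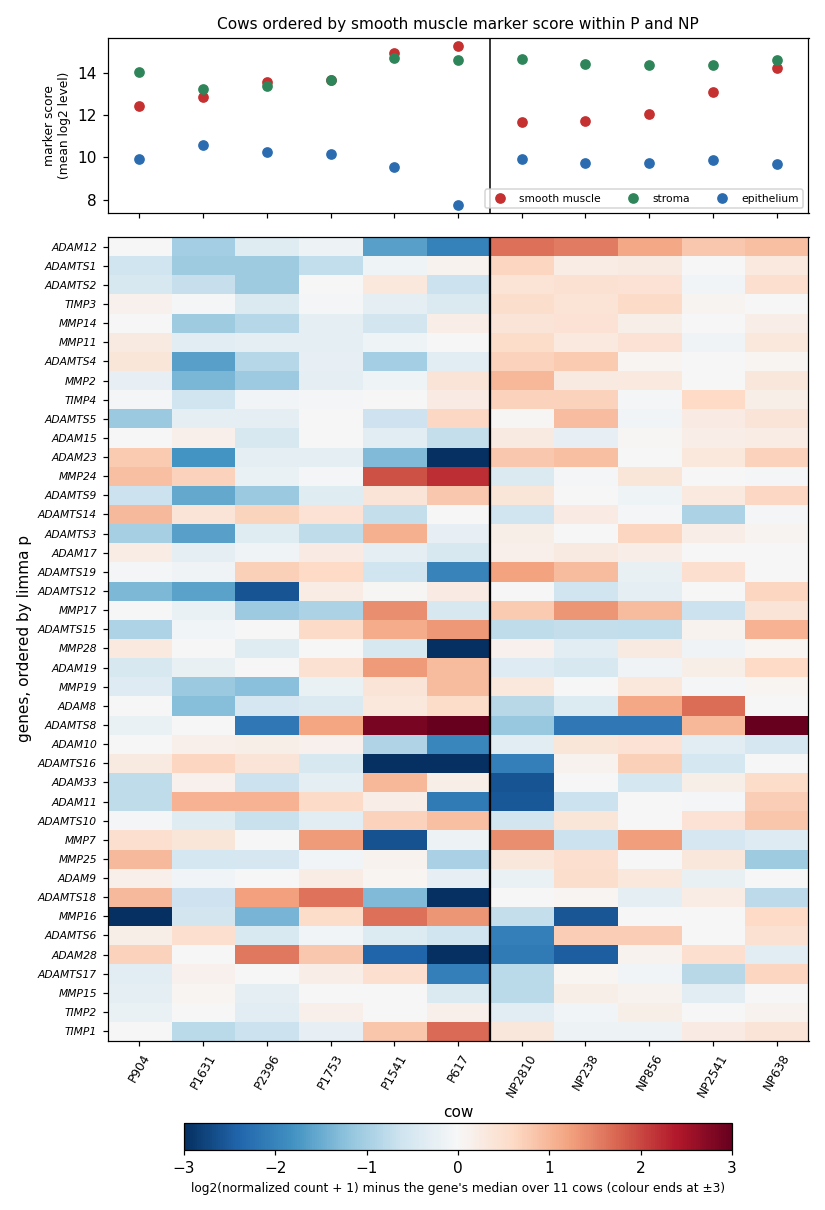
Marker scores (top, mean log2 level) and log2(normalized count + 1) of the 42 members as the difference from the gene's median (bottom, color scale in log2 units, ending at ±3), with the 6 P cows on the left and the 5 NP cows on the right, each ordered by smooth muscle score. P617 shows strong colors in both directions, with ADAM23 and ADAM28 low and MMP24 and TIMP1 high, and ADAM12 is at or below its median in every P cow.

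Markers of several cell types also differed between the groups at the unadjusted threshold. At an unadjusted p-value under 0.05 with limma, 6 of the 7 endothelial and 5 of the 9 leukocyte markers were higher in NP. So were 2 of the 4 pericyte and 2 of the 7 stromal markers, against 5.49% of all genes tested. In the other direction, 2 of the 9 smooth muscle markers were higher in P, against 2.35% of all genes. Of the 11 epithelial markers, 0 reached the threshold in either direction. The pericyte marker PDGFRB and the stromal marker DCN also had every NP cow above every P cow, as had 0.855% of all genes. The score ranged from 9.01 to 10.53 in P and 9.91 to 10.82 in NP for endothelium and from 9.54 to 10.35 and 10.20 to 10.60 for pericytes. For leukocytes it ranged from 5.82 to 7.04 in P and 6.44 to 7.86 in NP, for stroma from 13.25 to 14.70 and 14.34 to 14.65, and for smooth muscle from 12.43 to 15.27 and 11.65 to 14.22. The part of these cell types in the higher level of ADAM12, of the MMP and ADAMTS genes and of TIMP3 and TIMP4 was not tested. With the smooth muscle score as a covariate, 12 members were higher in NP at an unadjusted p-value under 0.05 with limma, against 4.36% of all genes, and 1, ADAMTS14, in P, against 1.51%. None passed the adjusted threshold, as for 0% of all genes. MMP11 and ADAMTS4 no longer reached the unadjusted threshold in that fit, and the log2 fold change of TIMP3 was 0.29 against 0.51 without the covariate. That of ADAM12 was 1.51 (limma adjusted p 0.577) against 2.08, while that of ADAMTS1 was 1.06 against 0.87. All 9 smooth muscle markers had log2 fold changes below 0, and the score was highest in P617 and P1541. The smooth muscle fit therefore cannot fully separate smooth muscle content from the group or from other traits of those cows. With the epithelial score as a covariate, 15 were higher in NP at the unadjusted threshold, against 8.49% of all genes, and 0 in P, against 4.46%. The adjusted threshold was passed by 3, where 1.35% of all genes did. These were ADAM12, ADAMTS1 and MMP14, with limma adjusted p-values of 0.0386, 0.0482 and 0.0993. The epithelial score was 7.74 in P617 and 9.57 to 10.58 in the other cows. That fit therefore cannot separate epithelial content from other traits of P617. Its score also averages CDH3, which ran opposite to the other epithelial markers in P617.

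Without P617 and P1541, a comparison of 4 P with 5 NP cows that was added after the data had been seen, more members were apart. NP638 was kept, with a smooth muscle score of 14.22 against 12.43 to 13.65 in the remaining P cows. With limma 2 members passed the adjusted threshold, ADAMTS1 (log2 fold change 1.15, adjusted p 0.0859) and ADAM12, where 0.113% of all genes did. At an unadjusted p-value under 0.05, 17 members were higher in NP, against 7.14% of all genes, and 2, ADAMTS14 and ADAM28, were higher in P, against 4.01%. The 17 included the 9 genes found with all cows, and ADAMTS3, ADAMTS5, ADAMTS9, ADAMTS10, ADAMTS12, MMP17, MMP19 and TIMP1. The remaining P cows all lay below the NP cows in 7 members, ADAM12, ADAMTS1, ADAMTS3, ADAMTS9, MMP2, MMP14 and MMP19, against 2.49% of all genes tested. They all lay above the NP cows in 1 member, ADAMTS14, against 1.17%. The median log2 fold change of the 42 members was lower, 0.19, with 29 above 0.

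**Figure D4:**
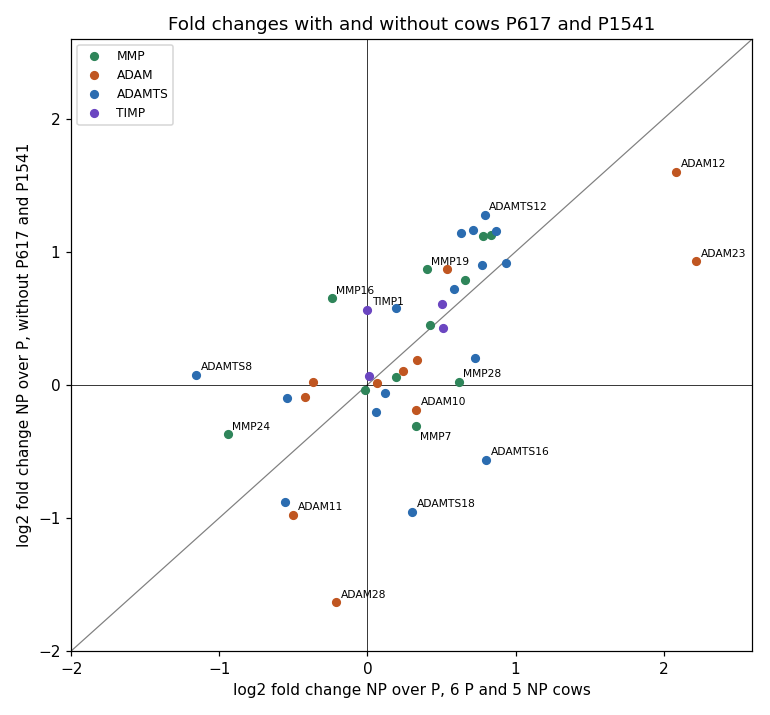
Log2 fold change (NP minus P) of the 42 members with all 11 cows on the x axis and without P617 and P1541 on the y axis, with the line of equal values. TIMP1, MMP19, ADAMTS8 and MMP16 lie above the line and ADAM23, ADAM28, ADAMTS16 and ADAMTS18 below it, while ADAM12 stays at 1.60 or more on both axes.

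Ratios of 2 members within a cow do not depend on the scaling of its library. They are given as descriptions, since the pairs were chosen with the levels known, and their height depends on transcript length and has no meaning on its own. The log2 ratio of ADAM12 to its inhibitor TIMP3 lay between -6.17 and -4.50 in P and between -3.99 and -3.43 in NP, without overlap. The log2 ratio of ADAM12 to ADAM10 lay between -3.88 and -2.71 in P and between -1.98 and -0.70 in NP, again without overlap. ADAM12 alone already had every NP cow above every P cow, so these ratios add no separate result. For MMP14 over TIMP2 the median was -1.42 in P and -0.84 in NP, and for MMP2 over TIMP2 it was 0.49 and 1.03, with P617 and P904 inside or next to the NP range in both. ADAMTS1 over TIMP3 and MMP11 over MMP14 also overlapped between the groups.

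**Figure D5:**
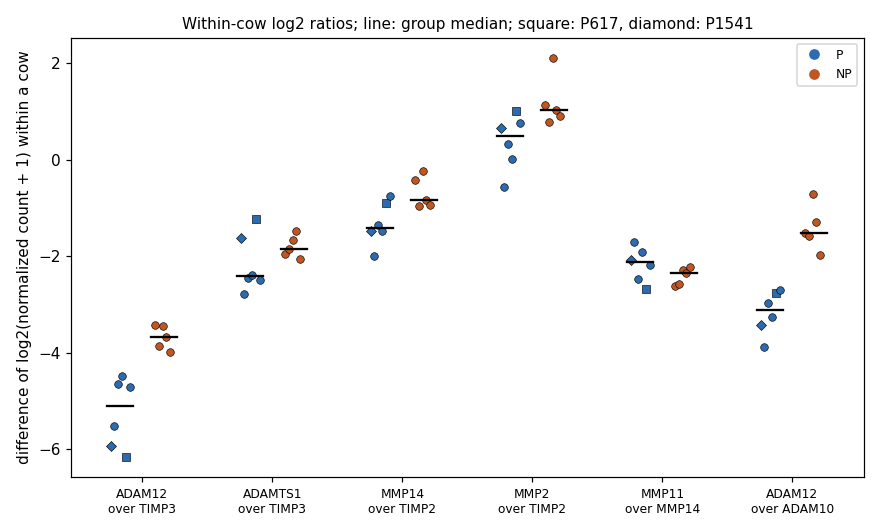
Log2 ratio of 2 members within each cow, for 6 pairs, with P cows (n = 6) and NP cows (n = 5) as points and the group medians as lines. ADAM12 over TIMP3 and ADAM12 over ADAM10 are higher in every NP cow than in every P cow, and the other 4 pairs overlap.

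Genes that act with these proteases were taken from lists of general knowledge. Of the 9 activators tested, 2 were higher in NP at an unadjusted p-value under 0.05 with limma and 0 in P, where 5.49% and 2.35% of all genes were. PCSK6, a furin-like convertase that removes propeptides, had 725, 744, 1141, 1291 and 1419.9 normalized counts in NP and 261 (cow P617), 437 and 840.2 (cow P904) in P, with a log2 fold change of 1.22 and adjusted p-values of 0.264 with limma and 0.0391 with DESeq2. PLAT, tissue plasminogen activator, had 2154, 2527, 5220.0, 5591 and 6699 in NP and 668 (cow P1541), 1121 and 4381 (cow P904) in P, with a log2 fold change of 1.67 (limma adjusted p 0.372). FURIN, a convertase of the secretory pathway, and BSG, a surface protein that induces MMPs, had log2 fold changes of 0.16 and 0.092. Of the 17 substrates tested, 4 were higher in NP at that threshold and 0 in P, beside the same shares of all genes. HBEGF, the growth factor that ADAM12 and ADAM17 release, had 74.2, 76.1, 85.0, 107 and 122 in NP and 11.3 (cow P617), 45.1 and 76.6 (cow P904) in P, with a log2 fold change of 1.20 (limma adjusted p 0.459). NOTCH1, FN1 and the small proteoglycan DCN were the other 3. DCN, which is also among the stromal markers above, had every NP cow above every P cow, as had 0.855% of all genes. Among the 6 other inhibitors, the 8 partners of ADAM10 and ADAM17 and the 5 ADAMTS-like genes tested, 0 reached the threshold in either direction with limma and 0 with edgeR. RECK, a membrane-anchored inhibitor of MMP2, MMP9 and MMP14, had a log2 fold change of 0.23 (SE 0.300).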

How the data were processed

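RNA-Seq was made from day 6 biopsies of 6 P and 5 NP cows. As far as the study's methods and the labels state, the authors cleaned the reads with Seqyclean, aligned them with Bowtie2 2.1.0 in local mode to the repeat-masked UMD3.1 assembly of Bos taurus, counted them per gene with HTSeq and normalized with DESeq2 1.12.1. The annotation and the use of strand are not given in the sources used here, and reads of Bos indicus cows were mapped to a Bos taurus assembly. The authors deposited 1 signal per gene and cow, the count divided by the cow's size factor. Within a cow the values were whole multiples of a step, the worth of 1 read (0.784 to 1.14), and 100% of the values lay within 0.05 of a whole number of reads.

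Limma 3.58.1 with a trend was fitted to log2(value + 1) of the 15081 genes reaching a mean of 5, with the threshold at 0.1 on the adjusted p. The quasi-likelihood test of edgeR 4.0.16 and DESeq2 1.42.0 (no independent filtering) on the recovered reads, TMM scaling, pseudocounts of 0.5 and 5, no filter, a mean of at least 50, marker scores as covariates and leaving out each cow were alternatives. The limma step was also run on simulated data. Its recovery of changed genes is not given here, so how often it misses a real change is not stated. Exact permutation tests used all splits of the cows, and counting error adds to the spread of genes with few reads. Named genes were members at an unadjusted p under 0.05 and a list of the best-known uterine members, and others are given by range. ADAM23 and the members named for a cow's extremes or for the comparison without P617 and P1541 were named after their values were seen. The members and lists were chosen with earlier results of these data known. Gene symbols are those of the deposited table. Of the 42 members, 41 were found by symbol in a RefSeq table of another cattle assembly, so no coordinates are given.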

Additional observations from a re-analysis of the deposited data

Results flagged for a closer look

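One cow stood far from the rest of its group in 3 of the 40 gene and group combinations examined, and chance alone gives about 1 in 20. ADAMTS2 was at 528 normalized counts in NP2541 and at 740.0 to 787 in the other NP cows. TIMP4 was at 62.8 in P1631 and at 90.1 to 112 in the other P cows. MMP7 was at 2.90 in P1541, a biopsy rich in smooth muscle markers, and at 20.3 to 56.4 in the other P cows. The cause was not tested.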

How the results depend on the processing

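The number of members past the adjusted threshold was 0 with limma and became 3 with DESeq2, 3 with the epithelial score as a covariate and 2 without cows P617 and P1541. It ranged from 0 to 1 when each cow was left out, the 1 being ADAM12 without P904 (limma adjusted p 0.0355). Of all genes tested, 1.13% passed it without P904, against 0% with all cows. Members higher in NP at the unadjusted threshold went from 9 to 15 with the epithelial score and to 17 without both cows, and ranged from 8 to 13 when each cow was left out, with 13 without P617. Of all genes tested, 6.18% were higher in NP at that threshold without P617, against 5.49% with all cows. Members higher in P went from 0 to 1 with DESeq2, edgeR and the smooth muscle score and to 2 without both cows, and ranged from 0 to 1 over single cows, with 1 without P1541, P1753 or P2396. The share of all genes higher in P was 4.12% with DESeq2 and 1.31%, 2.08% and 2.47% without P1541, P1753 and P2396. Members without overlap went from 1 to 8 without both cows and ranged from 1 to 4 over single cows, with 4 without P617, P904 or NP2541 and 2 without P1541. Of all genes tested, 2.49% had every NP cow above every P cow without both cows, and 1.17% the reverse. Over single cows the share of all genes is not given here, and fewer cows make a lack of overlap easier for any gene. The other settings left these counts of members within 1.5 times. The part of each cow's tissue in these shifts was not tested.

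Of the 20 named genes tested, 14 kept their direction in every setting. ADAM19 turned to 0.24 with the smooth muscle score and 0.021 without both cows, and ADAM10 to -0.27 and -0.19. MMP7 turned to -0.41 and -0.31 and ranged from -0.18 to 0.60 over single cows, the lowest without P1541. ADAM9 turned to -0.043 with the smooth muscle score and ranged from -0.049 to 0.14 over single cows, and TIMP2 ranged from -0.044 to 0.088. TIMP1 turned to 0.013 with TMM, 0.067 with the epithelial score, 0.56 with the smooth muscle score and 0.56 without both cows, and ranged from -0.19 to 0.31 over single cows. The median log2 fold change of all genes lay between -0.039 and 0.016 over the settings, and moved by at most 0.041 from the value with limma and all cows. No paired analysis was possible because the labels give each cow its own number and no number is shared between the groups. The 17 members with a mean under 5 rest on few or no reads per cow and were not tested.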

Other observations

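PLG, the precursor of plasmin, which activates several MMPs, had 319 normalized counts in P617 and at most 2.90 in the other cows. Of the furin-like convertases, PCSK7 had 585 to 781 normalized counts in NP and 682 to 1074 in P, with a log2 fold change of -0.23 (limma adjusted p 0.738). Among the partners of ADAM10 and ADAM17, TSPAN5 was at 48.6 in P617 and at 348 or more in the other cows, and ADAM10 was lowest in the same cow. ADAMTSL4, a secreted ADAMTS-like protein without protease activity, was highest in P617 and P1541, at 1151 and 789.8, and spanned 171 to 635 elsewhere. These genes were chosen after their values were seen.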
